A study of Mus musculus with 22 samples.

Results

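Vax1 and Vax2 are a pair of paralogous mouse genes for homeodomain transcription factors, and each was measured by 1 probe set (a group of short array probes read as one signal) among 22626 probe sets tested on Affymetrix arrays, which name 12393 genes. The members were all probe sets to which the platform annotation gives the symbol Vax1 or Vax2: 1421774_at for Vax1 and 1450303_at for Vax2. Whole eyes were collected at 5 ages, E10.5, E12.5 and E16.5 (embryonic days) and P8 and P60 (postnatal days), from mice labelled wt (wild type) and from mice labelled Vax2-/-, in which Vax2 was knocked out. Each genotype had 3 arrays at E10.5 and 2 at each later age, 22 in all. The labels name no strain, no litter and no pooling of animals, and the part of Vax2 that was deleted is not given in the sources used here. In 9 of 10 groups the arrays differed by over 2 log2 units in Xist or the Y-linked gene Eif2s3y, so the arrays of those groups did not all hold the same RNA; the exception was wild type at E12.5. At E10.5, wild-type replicates 2 and 3 and Vax2-/- replicates 1 and 2 were high in both genes. They read 12.8 to 13.2 for Xist and 11.6 to 11.7 for Eif2s3y, so each may hold RNA of both sexes. The labels do not say whether an array is 1 animal or a pool, and p-values measure only the spread between these arrays.

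Vax proteins take their name from the ventral anterior region of the embryo in which the genes are active. In the optic vesicle, Sonic hedgehog from the midline favours their expression in the ventral optic cup and the optic stalk, and bone morphogenetic protein 4 and Tbx5 mark the opposite, dorsal side. Vax1 is known mainly from the optic stalk, the optic nerve head and the ventral forebrain, and Vax2 from the ventral retina, where it bears on the map of retinal axons, on enzymes of retinoic acid and on the distribution of cone opsins. Both proteins have a homeodomain, a DNA-binding fold that commonly recognises a TAAT core.

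The sequence upstream of the Vax1 start is shown because Vax1 was the other gene of the pair whose signal could move in eyes without Vax2, and because it can carry such cores. From RefSeq, build GRCm38.p6, chr19:59170398-59170647 on the minus strand, the 250 bases before the annotated start of Vax1 read 5′ to 3′ as follows, with each TAAT core (TAAT on this strand or ATTA, its reverse complement) in capitals.
Vax1: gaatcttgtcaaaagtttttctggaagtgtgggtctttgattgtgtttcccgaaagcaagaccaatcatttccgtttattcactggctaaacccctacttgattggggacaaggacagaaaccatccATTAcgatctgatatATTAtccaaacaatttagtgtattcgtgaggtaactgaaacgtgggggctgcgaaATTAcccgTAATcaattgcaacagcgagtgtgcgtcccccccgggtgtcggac
The window held 4 cores. They lay at positions -123 to -120, -108 to -105, -53 to -50 and -45 to -42 from the start, so that they formed a distal and a proximal pair. At least 1 core was present in 54.9% of 32851 RefSeq windows of the same length and position, where the median was 1, and 9.62% of windows held 4 or more. The palindrome TAATTA, which contains overlapping cores of both strands, had 0 matches here and at least 1 in 4.84% of windows. These matches are a description of the letters and not of binding.

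The deposited values are log2 signals whose distributions were nearly alike within an age and differed between ages, so log2 levels are compared only between genotypes of an age, and ages are set side by side by percentile rank (the share of the probe sets of an array with a lower or equal signal). The tissue label was checked with fixed marker lists. At E12.5 and later, 10 measured eye genes had a median percentile of 84.8 to 90.5 in each array. At E10.5 that median was 49.4 to 51.4, and the eye list was uneven. Pax6 was at 79.9, Mitf at 67.6, Lhx2 at 65.1 and Six3 at 58.1, then Dct at 51.0 and Cryab at 49.4. Its lower members were Six6 at 40.9, Rax at 39.96, the lens crystallin Cryaa at 26.7 and tyrosinase Tyr at 24.9 (medians over arrays). In the same E10.5 arrays 10 genes of the ventral forebrain and hypothalamus had a median percentile of 45.4 to 51.3. The list was uneven, with Lhx8 at 91.0 and Dlx2 at 89.9, then Dlx1 at 60.6, Dlx5 at 52.0 and Lhx6 at 51.0. Its lower members were Sim1 at 45.8, Gsx2 at 35.0, Nkx2-1 at 27.7, Dlx6 at 22.8 and Otp at 21.6 (medians over arrays). By P8 and P60 the median of this second list was 10.1 to 11.6. At E10.5 the ranges of both lists overlapped, and their part in the Vax1 and Vax2 values was not tested. In whole tissue, fewer cells of a type and less RNA per cell cannot be told apart.

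Vax2 differed most between the genotypes at E10.5, where the arrays labelled Vax2-/- had the higher signal. Wild-type arrays read 6.48, 6.01 and 5.88 on the log2 scale, and arrays labelled Vax2-/- read 8.03, 7.85 and 7.99. The genotypes did not overlap, as was the case for 8.8% of probe sets at this age (5.8% with the knockout higher and 2.99% with it lower), and the spread was smaller in the knockout group. The rise of 1.84 ± 0.14 (SE of the limma fit) corresponds to 3.57-fold on this scale, with a 95% interval of 1.53 to 2.14 in log2. The wild-type arrays ranked low for Vax2, at percentiles of 23.0 to 28.0, and log2 array signals compress differences near background, so this is the size of the signal difference and not a bound on that of the transcript. It had the lowest p of the 22626 probe sets (limma, Benjamini-Hochberg adjusted p = 3.0e-05) and was the 1 probe set called at this age, where 0.00442% of all were called. The direction is opposite to a loss of transcript. Whether the probe set lies inside the deleted part of Vax2 is not given in the sources used here, so its signal neither checks the label nor measures working transcript, and arrays are named by their labels throughout. With E10.5 fitted alone the call was lost (limma, adjusted p = 0.294). Wild-type replicate 1 and Vax2-/- replicate 3 differed from the other arrays of this age in Eif2s3y, at 2.73 and 3.89 against 11.6 to 11.7, so that each genotype held 1 such array.

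At E12.5 the direction was the other way. Wild-type signals were 5.73 and 6.14, and those of arrays labelled Vax2-/- were 5.18 and 5.27. The groups did not overlap, which held for 28.4% of probe sets at E12.5, and the difference was -0.71 ± 0.17, which did not pass (limma, adjusted p = 0.108), while 0.164% of all probe sets did, 0.0575% with a lower value. This was the 1 age at which Vax2 was lower in eyes labelled as lacking it. Without wild-type replicate 1, the lower of the wild-type pair, the difference was -0.92. It passed on percentile ranks and after quantile normalization of all arrays together. In those 2 settings 933 and 1009 of 22626 probe sets were called at this age. In the E12.5 arrays all 10 skeletal muscle genes of the fixed list were measured. Their mean log2 signal was 4.05 to 4.75 in wild type and 4.99 to 5.18 in arrays labelled Vax2-/-. Of these genes 8 of 10 were higher, against 51.6% of all probe sets, and 1 of them passed. Xist was at 2.18 in Vax2-/- replicate 2 and at 9.27 to 10.2 in the other 3 arrays, and without that replicate the Vax2 difference was -0.76 (limma, adjusted p = 0.118). The Gapdh array control was brighter at the 3′ than at the 5′ end of its transcript in the E12.5 arrays. This gap was 1.04 and 1.06 log2 units in wild type and 1.05 and 1.07 in arrays labelled Vax2-/-. At the other ages it lay between -0.02 and 0.69. The parts of the muscle shift and of this control in the Vax2 value were not tested.

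At E16.5 the groups lay close together. Wild-type arrays read 8.89 and 8.60 for Vax2 and those labelled Vax2-/- read 8.99 and 9.07. The arrays did not overlap, which held for 31.5% of probe sets. The difference of 0.29 ± 0.17 did not pass (limma, adjusted p = 1, with 0.00442% of probe sets called), and its interval of -0.09 to 0.66 includes 0. Eif2s3y was at 3.30 in wild-type replicate 1 of this age and at 11.9 to 12.6 in the other 3 arrays. Without that array the Vax2 difference was 0.43. Xist was at 4.65 in Vax2-/- replicate 1 and at 13.2 to 13.6 in the other 3 arrays. A different sex-linked gene was thus low in 1 array of each genotype, and its part in the Vax2 value was not tested. Leaving out each of the 4 arrays in turn kept the difference between 0.14 and 0.43.

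In postnatal eyes Vax2 was again higher in arrays labelled Vax2-/-. At P8 the signal was 7.97 and 7.88 in wild type against 8.34 and 8.67. The difference of 0.58 ± 0.17 did not pass (limma, adjusted p = 1, with 0 of 22626 probe sets called and 719 at an unadjusted p under 0.05), and 27.9% of probe sets had genotypes that did not overlap. At P60 the values were 8.60 and 8.64 in wild type against 9.70 and 9.85, without overlap, as for 33.7% of probe sets. That difference was 1.15 ± 0.17, or 2.22-fold, with an interval of 0.78 to 1.52, and was the third lowest p of the age, just short of the threshold (limma, adjusted p = 0.0587, with 0.00884% of probe sets called). It did not pass with the replicate number as a block (limma, adjusted p = 0.170) or with P60 fitted alone (adjusted p = 0.348). It passed in 5 other settings of the analysis, with adjusted p-values (limma) of 0.0219 with a trended and robust variance, 0.00994 with array weights, 0.00649 after quantile normalization together, 0.0338 after median centring and 0.00430 on percentile ranks. With any of the 4 arrays left out the fit gave adjusted p-values (limma) of 0.210 to 0.422, though the difference stayed between 1.07 and 1.23.

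**Figure D1:**
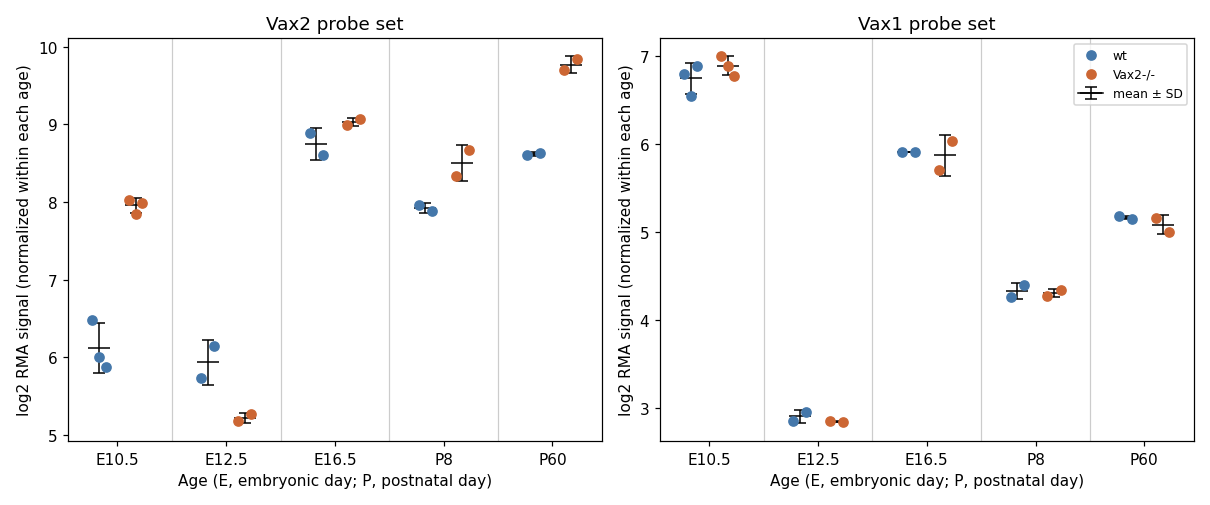
log2 RMA signal of the Vax2 probe set (left) and the Vax1 probe set (right) on each of the 22 arrays, by age and genotype, with the group mean and SD as black bars; grey lines separate ages because levels are comparable only within an age. For Vax2 the arrays labelled Vax2-/- lie above wild type except at E12.5, where they lie below it, while for Vax1 the genotypes lie close together at every age.

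Averaged over the 5 ages with equal weight, Vax2 was higher in arrays labelled Vax2-/- by 0.63 ± 0.08, or 1.55-fold (limma, adjusted p = 0.00347, where 0.0177% of probe sets were called and 0.0133% were called higher). An exact permutation test with genotype labels permuted within each age gave p = 0.00995 (two-sided, 25920 assignments, 0.0149 after adjustment over 3 such tests). With signs flipped only within the 11 same-numbered pairs, an alternative added after the data were seen, the exact p was 0.0371 (2048 assignments), which did not pass after adjustment over 3 tests (0.0557). No single age can reach the threshold by permutation, since the smallest p is 0.10 with 3 arrays against 3 and 0.333 with 2 against 2, and Vax2 was at these limits at all 5 ages. The average rests on the ends of the series: without E10.5 it was 0.33 (limma, adjusted p = 0.672), without P60 it was 0.50 (adjusted p = 0.309), and without E12.5 it rose to 0.96 (adjusted p = 4.2e-04).

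The size of the Vax2 difference varied between ages. In the moderated F test of age by genotype its F was 35.5 (limma, adjusted p = 0.00168), and 0.00884% of probe sets passed this test. With the replicate number as a block the call was lost (limma, adjusted p = 0.0591). Between E10.5 and E12.5 the difference moved by -2.55 ± 0.23 (limma, adjusted p = 9.0e-05), and between E12.5 and P60 it moved back by 1.86 ± 0.25 (adjusted p = 0.0176). The other 8 pairs of ages did not pass, and of these the change from E10.5 to E16.5, -1.55 ± 0.23, came nearest (adjusted p = 0.106). Replicate numbers are shared by the genotypes of an age, and 9 of 11 same-numbered pairs had more Vax2 signal in the array labelled Vax2-/-. The exceptions were both pairs of E12.5, at -0.55 and -0.87. The Vax2 groups did not overlap at any age, so pairs of an age must share their sign and add no separate evidence. At E10.5 the pairs gave 1.55, 1.84 and 2.11, at E16.5 they gave 0.10 and 0.47, at P8 0.37 and 0.79, and at P60 1.09 and 1.21.

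**Figure D2:**
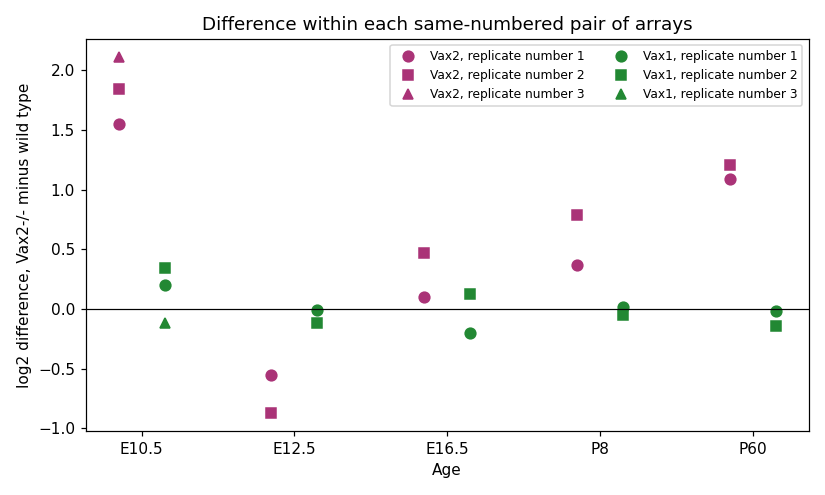
log2 difference, Vax2-/- minus wild type, within each pair of arrays with the same replicate number at an age (y axis), for Vax2 and Vax1; symbols give the replicate number. Pairs of an age fall on the same side of 0 for Vax2 at each of the 5 ages, as they must where the genotypes do not overlap. Only the E12.5 pairs lie below 0 for Vax2, whereas Vax1 pairs scatter around 0.

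By percentile rank, wild-type Vax2 was lowest at E10.5 and highest in the adult eye. The means were 25.0 ± 2.6 at E10.5 (SD, n = 3), 46.2 ± 2.3 at E16.5, 56.7 ± 2.7 at E12.5, 62.3 ± 1.3 at P8 and 69.3 ± 0.55 at P60 (SD, n = 2 each). The ranges of neighbouring groups in this order did not overlap, with the smallest gap, 2.72 percentile points, between E12.5 and P8. In the arrays labelled Vax2-/- the order was the same except that E12.5 and E16.5 could not be separated, at 49.1 ± 0.36 and 49.1 ± 0.57, followed by 71.8 ± 3.5 at P8 and 85.7 ± 1.2 at P60. A rank depends on the other probe sets of the array and on how the arrays of an age were processed. For scale, 17 measured genes of other organs, such as protamines, caseins and pituitary hormones, gave a view of dim probe sets. Vax2 lay above all 17 of them in each P8 and P60 array, above 15 to 17 at E12.5 and above 16 at E16.5. At E10.5 it lay above 13 to 16, the lower count in wild-type replicates 2 and 3, and these were also the arrays in which Vax2 had its lowest percentile ranks.

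**Figure D3:**
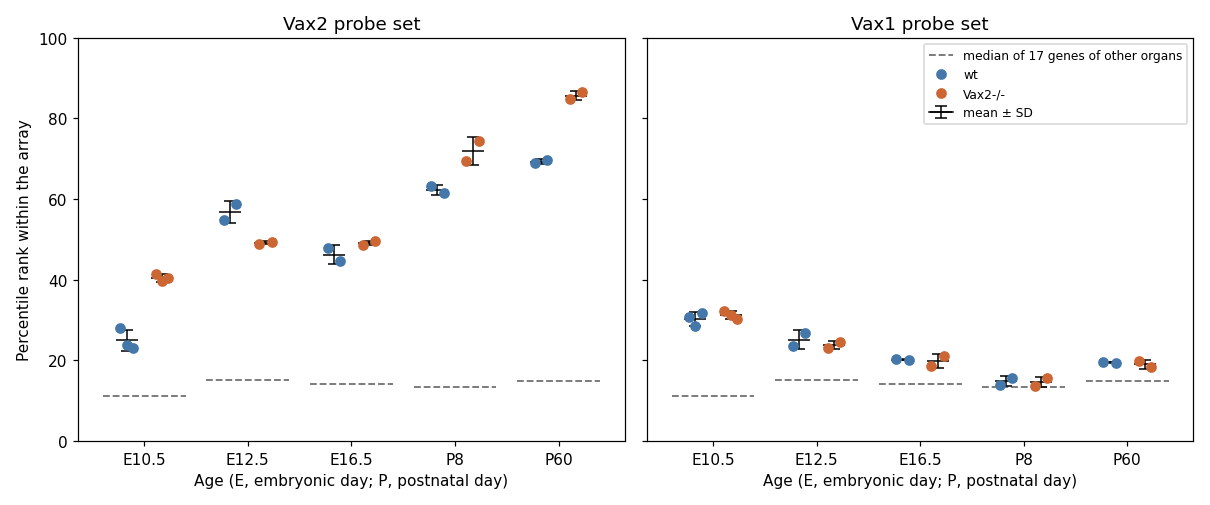
Percentile rank of the Vax2 probe set (left) and the Vax1 probe set (right) among the 22626 probe sets of each array, by age and genotype, with group means and SD as black bars and the mean over arrays of the median rank of 17 genes of other organs as a dashed line. Wild-type Vax2 ranks run from 25.0 at E10.5 to 69.3 at P60 while those of Vax1 run from 30.2 at E10.5 to 14.8 at P8, close to the dashed line.

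Vax1 did not pass at any age, and its differences between genotypes were small beside those of Vax2. At E10.5, wild-type arrays read 6.79, 6.55 and 6.89 and arrays labelled Vax2-/- read 6.99, 6.89 and 6.77. The groups overlapped, and the difference was 0.14 ± 0.10 (limma, adjusted p = 1), with an interval of -0.06 to 0.35. At E12.5 the wild-type values were 2.86 and 2.96 against 2.85 and 2.84, a difference of -0.06 ± 0.12. These did not overlap, which held for 28.4% of probe sets at this age, and the gap between the nearest arrays was far below the standard error. At E16.5 both wild-type arrays had the same deposited value of 5.91, as had 53 probe sets of that pair, and those labelled Vax2-/- had 5.70 and 6.04. The resulting difference was -0.04 ± 0.12, and the wild-type arrays lay between the knockout arrays. In P8 eyes Vax1 read 4.26 and 4.40 in wild type and 4.28 and 4.34 in arrays labelled Vax2-/-, a difference of -0.02 ± 0.12. In P60 eyes the values were 5.18 and 5.15 in wild type against 5.16 and 5.0, a difference of -0.08 ± 0.12. Adjusted p-values of these 4 ages lay between 0.965 and 1 (limma).

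Over the 5 ages the mean Vax1 difference was -0.01 ± 0.05 (limma, adjusted p = 0.999, exact permutation p = 0.810), and its 95% interval of -0.12 to 0.10 spans signal changes of up to 1.07-fold upward or 1.09-fold downward. At single ages the intervals were wider and reached 1.27-fold upward at E10.5. A p that misses the threshold does not show that Vax1 was the same in both genotypes, and the interval describes the array signal and not the transcript, since low signals compress a change. The difference did not detectably vary with age (F = 0.76, limma, adjusted p = 1). Of 11 same-numbered pairs, 4 had a higher and 7 a lower Vax1 signal in the array labelled Vax2-/-.

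The order of the ages by Vax1 rank was close to the reverse of that of Vax2. In wild type it was 30.2 ± 1.7 at E10.5 (SD, n = 3), 25.1 ± 2.3 at E12.5, 20.2 ± 0.17 at E16.5, 19.5 ± 0.13 at P60 and 14.8 ± 1.3 at P8 (SD, n = 2 each). Wild-type ranges of neighbouring ages did not overlap, although E16.5 and P60 were only 0.477 percentile points apart at their nearest arrays, and these 2 ages did overlap in the arrays labelled Vax2-/-. Against the 17 genes of other organs, Vax1 lay above 16 at E10.5, above 11 to 13 at E12.5 and E16.5, above 9 or 10 at P8 and above 11 or 12 at P60. Probe sets of different genes are not on a common scale, and the highest of the 17 lay between percentiles 41.5 and 63.7, so these counts describe ranks and do not show whether Vax1 was expressed. At E10.5, the age of its highest rank, Vax1 lay above 3 of 10 ventral forebrain and hypothalamus genes in every array, and at P8 and P60 above 6 to 8 of them. That list was higher in arrays labelled Vax2-/- for 8 of 10 genes at E10.5 and for 3 of 10 at E12.5. The medians were 0.08 and -0.19, and none of its members passed at either age. Over all probe sets 57.3% were higher at E10.5 and 51.6% at E12.5. The eye list had 8 of 10 and 4 of 10 genes higher at these ages, with medians of 0.07 and -0.04. The part of the forebrain and hypothalamus list in the Vax1 value was not tested.

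**Figure D4:**
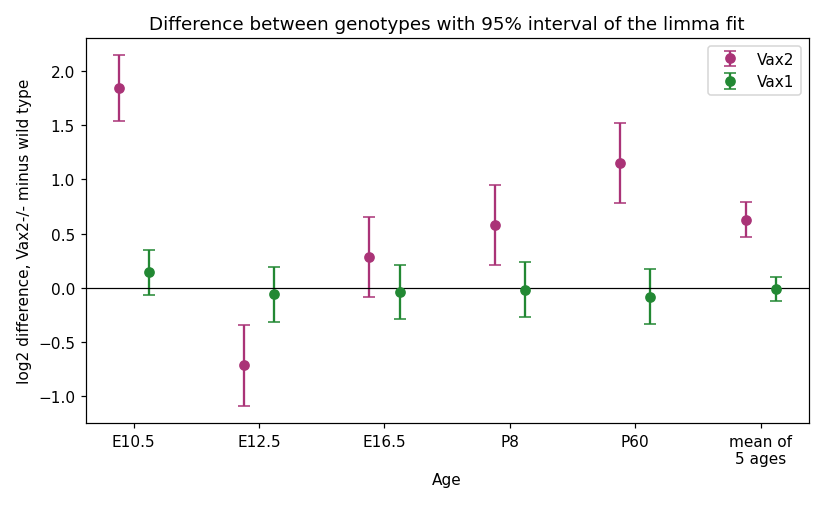
log2 difference, Vax2-/- minus wild type (y axis), of Vax2 and Vax1 at each age and as the mean of the 5 ages; points are limma estimates and bars are their 95% intervals. Vax2 intervals lie above 0 at E10.5, P8, P60 and for the mean and below it at E12.5, and each Vax1 interval includes 0. The intervals are not adjusted over probe sets, and after adjustment Vax2 passed only at E10.5 and for the mean.

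The paralogues were then compared by their differences, not by their levels, since probes of separate genes are not on a common scale. On average over the 5 ages the log2 value of Vax2 minus that of Vax1 was higher in arrays labelled Vax2-/- by 0.64 (exact permutation test within ages, two-sided p = 0.00741, adjusted over 3 tests 0.0149). With signs flipped within pairs the exact p was 0.0293, or 0.0557 after adjustment over 3 tests, which did not pass. By age it was 1.69 at E10.5, then -0.65 at E12.5, followed by 0.32 at E16.5, 0.60 in P8 eyes and 1.23 in P60 eyes, each at the smallest exact p of its age. Leaving out each array in turn kept the average between 0.60 and 0.67, with exact p-values of 0.00448 to 0.0161. Across the 22 arrays, after each value was centred on its own age and genotype, Vax1 and Vax2 were not detectably related. Pearson's r was 0.13 (exact permutation within groups, p = 0.789) and Spearman's rho was 0.13 (exact p = 0.638), and r was 0.28 without the 2 arrays farthest from the median of Vax2, wild-type replicates 1 and 3 of E10.5. On percentile ranks r was 0.36 (exact p = 0.292). After adjustment over these 4 p-values none was below 0.585. Within a single age at most 6 arrays are available, too few for separate values in the later ages.

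Other genes were ranked by how closely their probe sets followed each member over the 22 arrays after the mean of each age had been subtracted (Pearson's r, given as a description). Nearest to Vax2 were Dnajc4, a J-domain co-chaperone, at 0.80, the annexin Anxa9 at 0.78, Ndufa12, a subunit of mitochondrial complex I, at 0.75, Gtf3a, transcription factor IIIA, at 0.74 and the membrane progesterone receptor component Pgrmc2 at 0.73. Their genotype differences were much smaller than that of Vax2, for example 0.24 at E10.5 and 0.08 at P60 for Dnajc4. Most opposed were Fam91a1 at -0.78, the desmosomal cadherin Dsc1 at -0.76, Ccn5 at -0.74, the sodium channel subunit Scnn1a at -0.72 and Actl7b at -0.72. For Vax1 the closest were Rrh, a visual pigment-like receptor of the retinal pigment epithelium, at 0.75, Fgf13 at 0.73, Morn3 at 0.72, the ribosomal protein gene Rps2 at 0.72 and Tcl1 at 0.71, and the most opposed was the cytokine gene Clcf1 at -0.76. All these arrays share their normalization, and the names depended on the scale: on percentile ranks 1 of the 5 closest genes was shared for each member. After centring on genotype as well as age, 0 of the 5 closest and 0 of the 5 most opposed genes of Vax2 were shared, and r was 0.32 for Ndufa12, -0.23 for Fam91a1 and -0.10 for Ccn5.

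Genes that act around the Vax factors were described from fixed lists, with the brightest probe set of each gene and the mean of the 5 differences, for which 53.4% of all probe sets were higher and the median was 0.0043. Upstream, 12 of 14 hedgehog genes were measured, with 4 higher, 8 lower, none passing and a median of -0.02, and Shh itself, the ligand, had 0.02 ± 0.06. Of genes of the ventral retina and optic stalk, 6 of 8 were measured and all 6 were lower, with a median of -0.17 (-0.22 over their 9 probe sets, 1 of which was higher), and 1 gene passed. That gene was Smoc1, a secreted modulator of bone morphogenetic protein signalling, at -0.48 ± 0.05 (limma, adjusted p = 4.8e-04). Without E12.5, where it had -1.51 ± 0.11, the mean of the other ages was -0.22 and did not pass (adjusted p = 0.460). Aldh1a3, which makes retinoic acid in the ventral retina, had -0.40 ± 0.07 and did not pass (adjusted p = 0.137), and the bone morphogenetic protein receptor Bmpr1b had -0.22 ± 0.09. Among dorsal genes 9 of 10 were measured and all 9 were higher, with a median of 0.12, and none passed. They included the pseudoreceptor Bambi at 0.22 ± 0.04 (limma, adjusted p = 0.190), Tbx3 at 0.24 ± 0.06, Tbx2 at 0.18 ± 0.06, Tbx5 at 0.16 ± 0.06 and the axon guidance ligand Efnb2 at 0.12 ± 0.04, while Bmp4 had 0.05 ± 0.09. The second probe set of Tbx5 gave 0.09 ± 0.06. Most of these shifts were already known from the same arrays when the lists were chosen, so their direction is not independent evidence.

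In retinoic acid metabolism and reception, 16 of 19 genes were measured, with 7 higher and 9 lower. The 1 that passed was Cyp26a1, which degrades retinoic acid, at 0.68 ± 0.10 (limma, adjusted p = 0.0304), a call that was lost in 17 of the 22 fits with 1 array left out, where the difference stayed between 0.63 and 0.73. It was also lost without E12.5, E16.5, P8 or P60 (adjusted p = 0.204 to 0.460) and kept without E10.5. Aldh1a1, the dorsal enzyme, had 0.04 ± 0.06. Of 12 measured genes of the Wnt transcription branch, 5 were higher and 7 lower and none passed, with Tcf7l2 at 0.02 ± 0.06. Of 11 measured cone genes 7 were higher and 4 lower and none passed on average over ages. The short-wavelength opsin Opn1sw changed at P60 by -2.57 ± 0.33 (limma, adjusted p = 0.0150), and this call was lost without any 1 of the 4 arrays of that age (adjusted p = 0.0615 to 0.136). Its other probe set had -1.71 ± 0.29 and did not pass (adjusted p = 0.132). The middle-wavelength opsin Opn1mw had 0.61 ± 0.13 at P60 (limma, adjusted p = 0.574) and the other direction, -0.46 ± 0.13, at P8, and neither passed. Among the other homeobox genes of eye development 19 of 28 were measured, 10 higher and 9 lower with a median of 0.01, and Pax6 had -0.01 ± 0.04. Set beside them, the Vax2 mean of 0.63 was the 13th largest difference of all probe sets in size and that of Vax1 was number 18879.

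**Figure D5:**
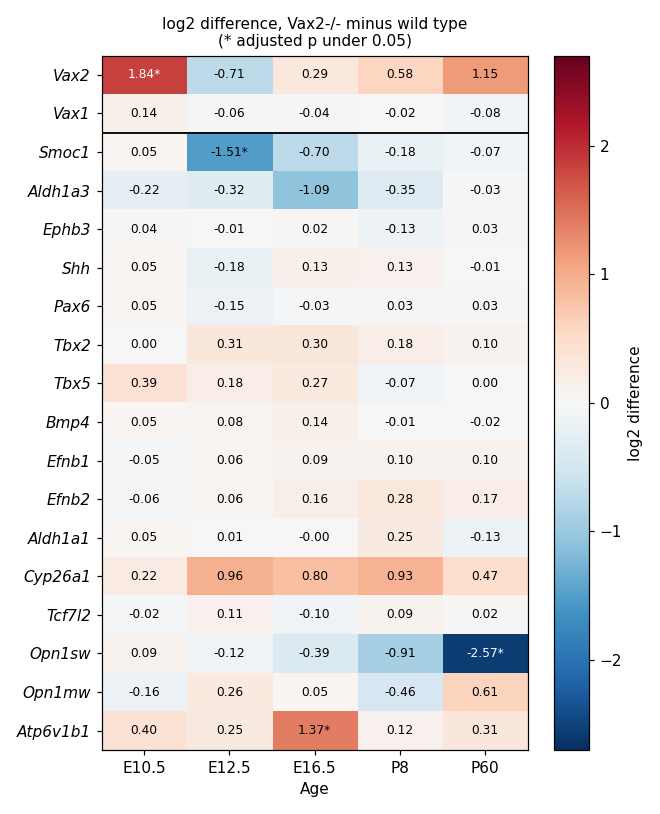
log2 differences, Vax2-/- minus wild type, at each age (columns) for Vax2 and Vax1 (above the black line) and for 16 fixed genes around them (rows, brightest probe set per gene); colour and number give the value and an asterisk marks an adjusted p under 0.05. Vax2 has 1.84 at E10.5, -0.71 at E12.5 and 1.15 at P60, Smoc1 has its lowest value, -1.51, at E12.5, and the Vax1 row stays between -0.08 and 0.14.

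The next protein-coding gene after Vax2 in the RefSeq annotation, Atp6v1b1, a subunit of the vacuolar proton pump, had a mean difference of 0.49 ± 0.06 over the ages, which passed (limma, adjusted p = 0.00347). By age its differences were 0.40 ± 0.11 at E10.5, then 0.25 ± 0.13 at E12.5, 1.37 ± 0.13 in E16.5 eyes (adjusted p = 7.2e-04), 0.12 ± 0.13 in P8 and 0.31 ± 0.13 in P60 eyes. Without E16.5 the mean was 0.27 and without E10.5 it was 0.51, and neither passed (adjusted p = 0.770 and 0.146). Its course over the ages was not tested against that of Vax2. In the same annotation the non-coding gene Vax2os overlaps the start of Vax2, and it was not analysed here.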

How the data were processed

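Vax1 and Vax2 were read from 22 Affymetrix arrays of whole mouse eyes. The deposited log2 values are the authors' RMA output, per the submitters' processing notes (its version and settings: not given in the sources used here). The log2 scale was read from the values, and the sorted values were nearly alike within an age but not between ages, with array medians of 5.28 to 9.10. The number of arrays limits the precision. The 64 array controls among 22690 probe sets were not tested. The platform annotation gave 1 symbol for 20380 probe sets, several for 691 and none for 1555, and 20351 identifiers matched a RefSeq table (GRCm38.p6). Pax2, Ephb2, Cyp26c1 and Vax2os, of the 20 genes fixed to be described, are not analysed here.

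One mean per age and genotype was fitted to all probe sets with limma 3.58.1 in R 4.3.3 (12 residual degrees of freedom, default eBayes), and p-values were Benjamini-Hochberg adjusted over 22626 probe sets per contrast with a threshold of 0.05. This shares 1 spread over all ages. Exact permutation tests, ranks and figures used Python 3.11.15. The fit was tested on simulated data. The named genes were the members, the 5 nearest and 5 most opposed genes to each, up to 4 of each list and the 20 fixed genes. Members, lists and tests were chosen with earlier results of these data known. Alternatives were a trended and robust variance, each age alone, the replicate block, array weights, bright probe sets only, quantile normalization together, median centring, percentile ranks and leaving out each array or age. Same-numbered arrays of an age deviated together over all probe sets (correlations of 0.108 to 0.410 in 11 pairs), which meets the rule set for pairs. Deviations were taken from the group mean. With 2 arrays per genotype both pairs of an age therefore had the same correlation, so these are not 11 separate checks. The fit and permutations reported first have no block, and paired results are given as alternatives. At P60 Xist was 11.3 and 11.1 in the arrays numbered 1 and 5.42 and 5.65 in those numbered 2. At P8 it was 5.61 and 5.16 in the arrays numbered 1 and 11.6 in both numbered 2. Unlike these, the E12.5 arrays numbered 2 had 9.27 and 2.18, and the E16.5 arrays numbered 1 had 13.6 and 4.65. The labels do not say what a number stands for.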

Additional observations from a re-analysis of the deposited data

Results flagged for a closer look

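The Vax2 difference between genotypes varied with age, which is why it is listed here: the moderated F test gave 35.5 (limma, adjusted p = 0.00168), the change from E10.5 to E12.5 was -2.55 (adjusted p = 9.0e-05) and the change from E12.5 to P60 was 1.86 (adjusted p = 0.0176). Vax2 was higher in all 3 arrays labelled Vax2-/- than in all 3 wild-type arrays at E10.5 and lower in both than in both wild-type arrays at E12.5. Genotypes did not overlap, in either direction, for 8.8% of all probe sets at E10.5 and for 28.4% at E12.5. The Vax2 difference at E12.5 did not pass by itself (limma, adjusted p = 0.108). The fixed gene Smoc1 also varied with age, with an F of 40.3 (limma, adjusted p = 0.00142), from 0.05 at E10.5 to -1.51 at E12.5. With the replicate number as a block neither F test passed (limma, adjusted p = 0.0591 for Vax2 and 0.0766 for Smoc1).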

How the results depend on the processing

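With each age fitted alone the E10.5 difference of Vax2, 1.84, no longer passed (limma, adjusted p = 0.294). At E12.5 Vax2 passed after quantile normalization together, at -0.60 (adjusted p = 0.0454), and on percentile ranks, at -7.60 points (adjusted p = 0.0309). At P60 it passed at 1.15 with a trended and robust variance and with array weights, at 1.15 after median centring, at 1.32 after quantile normalization and at 16.4 points on percentile ranks. The mean of the 5 differences fell to 0.33 without E10.5 and to 0.50 without P60, and neither passed. The F of Vax2 was 46.2 with the replicate block, 28.1 without E10.5 and 20.8 without E12.5, and did not pass in these 3 fits. In the permutation tests, sign flips within same-numbered pairs (added after the data were seen) left the mean of Vax2 at 0.63 and Vax2 minus Vax1 at 0.64, with exact p-values of 0.0371 and 0.0293 that did not pass after adjustment over 3 tests (0.0557 for both). The replicate block changed no other call of Vax1 or Vax2 in the limma fits, and it lost the F test of Smoc1 (F = 37.0, adjusted p = 0.0766). The cause of these changes was not tested. The filter on dim probe sets removed Vax1 and Vax2 and gave no value for them.

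The mean difference of Vax1 changed sign, at 0.0143 with array weights, 0.0014 without E12.5 and 0.0063 without P60, and passed nowhere. Leaving out each array gave ranges of 0.04 to 0.22 at E10.5, -0.11 to -0.01 at E12.5, -0.20 to 0.13 at E16.5, -0.0851 to 0.0488 at P8, -0.16 to -0.0026 at P60 and -0.0443 to 0.0221 for the mean of Vax1. For Vax2 these were 1.72 to 2.02 at E10.5, -0.92 to -0.51 at E12.5, 0.14 to 0.43 at E16.5, 0.42 to 0.74 at P8, 1.07 to 1.23 at P60, 0.59 to 0.67 for the mean and 27.1 to 59.3 for F, and the 1 call that changed was that of E12.5 without wild-type replicate 1. Where 1 array of a group was left, it was taken to vary like the other groups. The r of Dsc1 to Vax2 was 0.0233 when centred on age and genotype.

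Counts of probe sets called moved by over 1.5 times in several settings. At E10.5, 1 was called, 71 with array weights and 0 with the age alone or with bright probe sets only. At E12.5, 37 were called, 24 with a trended variance, 87 with array weights, 1009 after quantile normalization together, 933 on ranks and 0 with the age alone. At E16.5 the count was 1, against 3 with a trended variance or array weights, 2 on ranks or with bright probe sets only and 0 alone. At P8 it was 0, and 1 on ranks. At P60 it was 2, against 6 with a trended variance, 4 with array weights and 0 alone, and 1 with the block or bright probe sets only. For the mean 4 were called, 14 after quantile normalization and 2 with bright probe sets only, and for the F test 2, 141, 105 on ranks and 0 with the block. With 1 array left out, the counts ranged over 1 to 2 at E10.5, 115 to 242 at E12.5, 1 to 7 at E16.5, 0 to 140 at P8, 0 to 4 at P60, 3 to 42 for the mean and 2 to 70 for F.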

Other observations

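Lists of other tissues that a whole eye can carry showed the following means over the 5 ages, for which 53.4% of all probe sets were higher. Lens genes were higher in 8 of 8 measured members with a median of 0.06, skeletal muscle genes in 9 of 10 with a median of 0.17, and optic nerve glia genes in 2 of 7 with a median of -0.07. Eye genes were higher in 6 of 10 with a median of 0.0031, and ventral forebrain and hypothalamus genes in 5 of 10 with a median of 0.0059. No member of these lists passed for the mean over ages. Of the 17 genes of other organs 9 were higher, with a median of 0.0037. The muscle list was uneven over the ages, with 8 of 10 genes higher at E12.5 (median 0.76) but 0 of 10 at P60 (median -0.16). Its medians were 0.07 at E10.5, 0.02 at E16.5 and 0.21 at P8. For 4 sex-linked genes the median was 2.60 in E16.5 eyes and ran from -0.12 to 0.04 elsewhere. Single genes reached -4.41 and 4.55 at E16.5 and -3.50 at E12.5, and arrays differed in Xist or Eif2s3y at all 5 ages.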
